A study of Mus musculus with 6 samples.

Results

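The clustered protocadherins are cell-surface adhesion proteins encoded by 3 neighbouring gene clusters, alpha, beta and gamma, on mouse chromosome 18. Members were the protein-coding mm10 RefSeq genes with symbols Pcdha, Pcdhac, Pcdhb, Pcdhga, Pcdhgb or Pcdhgc and a number: 57 of 21896 coding genes, with 14 in the alpha, 22 in the beta and 21 in the gamma cluster. Their chromatin was described over the 119 of 193148 ATAC-seq regions that lie from 50 kb before the first to 50 kb after the last member (chromosome 18, 36880285 to 37891873). ATAC-seq counts reads from DNA that is open to a transposase. Nuclei came from the ventral tegmental area, a midbrain region that holds dopaminergic neurons. Both groups received AAV-TH-Cre, which by its name carries Cre recombinase under tyrosine hydroxylase control, together with AAV-DIO-H2B-EGFP, a nuclear tag switched on by Cre, and the EGFP-positive nuclei were collected by sorting. The knockdown group carried Ogtflox+/Y, the floxed allele of the O-GlcNAc transferase gene Ogt, and the control group Ogtflox-/Y, with 3 libraries each. The labels give neither the age of the mice nor whether a library came from 1 animal or a pool, so the replicate spread behind each p-value may be purely technical. The title of knockdown replicate 1 names the control genotype, against its genotype label. Groups followed the genotype label, and no call reported here for the locus was kept when that library was grouped by its title.

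In the alpha and gamma clusters a row of variable first exons, each with its own promoter, is spliced to a shared 3′ part, so that promoter choice decides which isoform a neuron makes. The beta genes are each a single exon. Most promoters of the clusters are used at random in single neurons, with CTCF and cohesin bringing a chosen promoter to distant enhancers, and the resulting combinations give neurons surface identities that serve dendrite self-avoidance. The C-type genes Pcdhac1, Pcdhac2, Pcdhgc3, Pcdhgc4 and Pcdhgc5 are the exception: they are not chosen in this random way. The RefSeq bounds used here show the shared part, since the alpha genes end within 1240 bp of one another and the gamma genes within 10 bp. The lower bound was therefore taken as the start of each gene. From the last start to the shared end the alpha cluster ran 45.2 kb and the gamma cluster 22.3 kb.

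Library totals were 34384319 to 66853563 reads. Of these, 38.2%, 36.6% and 37.6% lay in regions in control replicates 1 to 3, and 33.0%, 31.0% and 37.0% in knockdown replicates 1 to 3. A count of 3 reads corresponded to 0.117 to 0.237 CPM, the count scaled to the reads in regions of a library. Regions of the locus were shallow, with a median of 56.0 reads per library, and 27.0 in the beta cluster. All 10 dopaminergic marker genes had a region, and they summed to 805 to 1243 CPM in control and 828 to 940.1 CPM in knockdown. The most open region at Th, the gene of tyrosine hydroxylase, had 178, 379 and 245 CPM in control replicates 1 to 3 and 237, 182 and 172 CPM in knockdown replicates 1 to 3. The most open region of a gene was taken within 5000 bp of its bounds, so it can lie at a neighbouring gene. Reads from the vector were not told apart here from those of Th. Among the 10 genes, control means of the most open region were highest at Th (267 CPM) and Pitx3 (51.4 CPM). They were lowest at Slc6a3, Slc18a2 and Foxa2 (4.01, 5.02 and 5.82 CPM), where the median of all regions over all libraries was 2.35 CPM. Summed accessibility over 8 astrocyte marker genes was 252 to 275 CPM in control and 284 to 374 CPM in knockdown, with 23 of 61 regions higher and 3 lower in knockdown, against 15.4% and 12.7% of all regions tested. Over 6 neuronal markers it was 1304 to 1451 CPM in control and 1258 to 1455 CPM in knockdown, with 19 of 251 regions higher and 41 lower. Over 8 oligodendrocyte markers it was 255 to 289 CPM in control and 332, 219 and 269 CPM in knockdown replicates 1 to 3. Knockdown replicate 1 stood apart there, with 5.96 CPM at Mog, a myelin gene, against 0.950 and 0.863 CPM in the other two and 0.380 to 0.662 CPM in control. The 5 endothelial markers summed to 66.4 to 71.1 CPM in control and 62.0 to 68.4 CPM in knockdown. Over 6 microglia markers, of which Tmem119 had no region, it was 59.2 to 68.1 CPM in control and 41.7 to 45.5 CPM in knockdown. The 3 GABAergic markers summed to 94.9 to 124 CPM in control and 144 to 171 CPM in knockdown, and the 2 glutamatergic markers to 97.2 to 112 and 60.1 to 92.7 CPM. Higher and lower calls were 10 and 0 of 25 GABAergic regions, 0 and 6 of 16 glutamatergic and 15 and 9 of 56 oligodendrocyte regions. They were 3 and 5 of 19 endothelial regions, 0 and 2 of 16 microglia and 8 and 4 of 74 dopaminergic regions. The part of these shifts in the results on the protocadherins was not tested. In sorted nuclei from a mixed tissue, fewer open nuclei of 1 cell type and less open chromatin per nucleus cannot be told apart.

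Of the 57 members, 53 had a region within 1000 bp of their start, called a start region here. All 14 alpha genes had one, as did 19 of 22 beta genes and 20 of 21 gamma genes. None was analysed here at Pcdhb2, Pcdhb7, Pcdhb21 or Pcdhgb7. A pair of start regions occurred at 9 of 14 alpha genes but at 2 beta and 2 gamma genes. At Pcdha3, for example, 1 region was centred 11 bp before the start and the other 499 bp after it, and at Pcdha7 they were centred 23 and 543 bp after it. The variable exons of a cluster resemble one another, and the treatment of reads that fit several copies is not stated in the labels, so levels at single Pcdha, Pcdhb, Pcdhga and Pcdhgb genes carry that uncertainty.

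Start regions of the subfamilies stood at different levels of openness. Scaled to a width of 401 bp, the median Pcdhb start region had 2.36, 2.15 and 1.75 CPM in control replicates 1 to 3, the lowest of the 6 subfamilies in each library. Pcdha start regions followed with medians of 2.94, 2.5 and 2.03 CPM. Pcdhga start regions (6.23, 6.08 and 4.49 CPM) and Pcdhgb start regions (6.91, 5.58 and 4.12 CPM) changed places between libraries and were not separated beyond that spread. The C-type starts were the most open, at 12.96, 13.5 and 12.8 CPM for Pcdhac and 16.1, 16.3 and 16.3 CPM for Pcdhgc. No beta start region reached the level of the lowest C-type start region in the control mean. The knockdown libraries had the order Pcdhb, Pcdha, Pcdhgb, Pcdhga, Pcdhac and Pcdhgc, which is also the order in control replicates 2 and 3. The most open single start in control was Pcdhgc3 (24.6 CPM), followed by Pcdhgc4 (18.8 CPM per 401 bp) and Pcdhac1 (16.5 CPM). Over all libraries, the median member start region had 3.30 CPM per region, against 15.3 CPM at starts of all coding genes. Here and below, starts of all coding genes are those of the 17491 coding genes in a RefSeq promoter set, placed by strand.

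The comparison of genotypes asked whether lowering Ogt changes accessibility, here at the protocadherins. At a Benjamini-Hochberg adjusted p under 0.05 from edgeR's quasi-likelihood test over 191693 regions, 11 of 118 tested locus regions were higher and 9 lower in knockdown. Over all regions tested, 15.4% were higher and 12.7% lower. One locus region, before Pcdha7, held too few reads to test. The median log2 fold change (log2 ratio of knockdown over control) was -0.06 over the locus and -0.01 over all regions. At the 66 member start regions 4 were higher and 4 lower, with a median of -0.11. Starts of all coding genes had a median of 0.26, with 38.2% higher and 4.68% lower. Lower calls in the locus were 5 without control replicate 2 and 14 without knockdown replicate 2, and at member starts 2 and 8. By gene, 3 members had a higher start region (Pcdhac2, Pcdhgc3 and Pcdhgc4), 4 a lower one (Pcdhb3, Pcdhb11, Pcdhb14 and Pcdhga2) and 46 no call. Openness itself differed between these sets, so the shares were also read by level. Among start regions with a mean of 10 CPM or more, 4 of 10 at members and 43.6% at all coding genes were higher. Between 3 and 10 CPM, 0 of 25 member start regions and 32.7% of those of coding genes were higher, and under 3 CPM 0 of 31 and 17.5%. At an unadjusted p under 0.05, edgeR found 6 of the 66 higher, and DESeq2 called 4.

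Scaling weighed on the split of these calls. With library totals in place of the trimmed mean of M values (TMM), the median of all regions moved to -0.27, and 3 locus regions were higher and 30 lower, against 6.82% and 24.6% of all regions. No member start was then higher and 15 were lower, against 9.78% and 11.5% at starts of coding genes. Directions below are therefore relative to the bulk of regions.

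**Figure D1:**
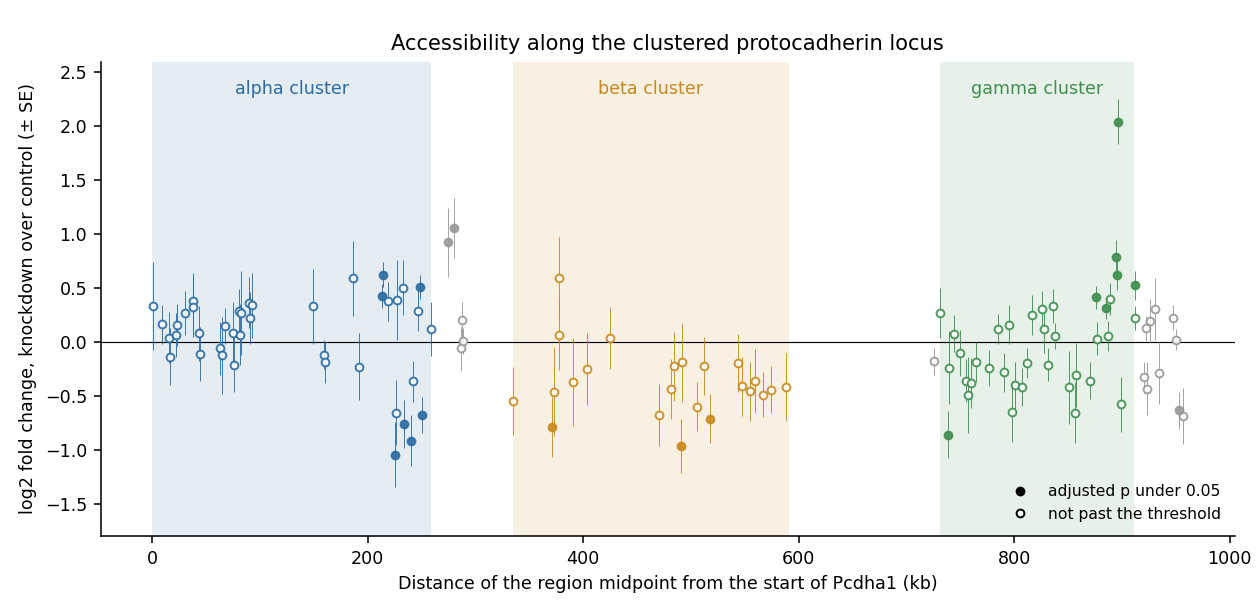
Log2 fold change (knockdown over control, ± SE) of each tested region against the distance of its midpoint from the start of Pcdha1 in kb, coloured by cluster, grey outside the clusters; filled points passed the adjusted p threshold. Of the beta regions 20 of 23 lie below 0, and the highest point, at 2.04, lies after the last start of the gamma cluster.

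Of the 3 clusters, beta had the lowest median fold change. Of 23 beta regions, 20 had a negative log2 fold change, the median was -0.42, and 3 were called lower. None was called higher by edgeR or DESeq2, nor passed an unadjusted p under 0.05 in that direction, where 6 lower regions did. The 3 of 23 called lower are a share near the 12.7% over all regions, so the count of calls does not set the cluster apart. In alpha, 27 of 41 tested regions were positive, with a median of 0.15, 3 higher and 4 lower calls. In gamma, 19 of 38 were positive, with a median of -0.04, 6 higher calls and 1 lower. The 16 locus regions outside the clusters had a median of 0.01, with 2 higher calls and 1 lower. Without control replicate 2 or control replicate 3 the beta count was 1, and without knockdown replicate 2 it was 7. Relative to the median of all regions, beta stood at -0.41, alpha at 0.15 and gamma at -0.03, and with library totals at -0.42, 0.16 and -0.02. That closeness is built in, since library totals change only 1 factor per library. Over the 12 alternative runs, loess curves and grouping by title included, beta ranged from -0.57 to -0.24, alpha from -0.02 to 0.22 and gamma from -0.15 to 0.08. Leaving out control replicate 3 brought the alpha median to -0.01, and leaving out knockdown replicate 3 brought the beta median to -0.25, with 19 of 23 regions negative.

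Summed over its regions, the beta cluster had 55.7, 53.6 and 45.0 CPM in control replicates 1 to 3 and 37.3, 45.6 and 32.1 CPM in knockdown replicates 1 to 3. Knockdown replicate 2 was thus level with control replicate 3, and the other two knockdown libraries were below every control. The alpha cluster summed to 187, 179 and 159 CPM in control and 178, 192 and 200 CPM in knockdown. The gamma cluster summed to 343, 334 and 296 CPM in control and 334, 353 and 393 CPM in knockdown. Both of these overlapped between groups. Ratios between clusters within a library do not depend on a single scaling factor per library, but they can follow shifts linked to level. All regions at 10 CPM or more had a median log2 fold change of 0.23. At that level lay 4 alpha and 14 gamma regions, while beta had 20 regions under 3 CPM and 3 between 3 and 10 CPM. No ratio was computed with loess curves. The ratio of alpha to beta was 3.35, 3.34 and 3.54 in control and 4.77, 4.22 and 6.25 in knockdown, without overlap, with means of 3.41 ± 0.109 and 5.08 ± 1.05 (SD, n = 3). Without knockdown replicate 3, the highest, the knockdown mean was 4.5. The ratio of gamma to beta was 6.16, 6.23 and 6.56 in control and 8.93, 7.75 and 12.3 in knockdown, again without overlap. The ratio of alpha to gamma was 0.540 ± 0.00392 in control and 0.529 ± 0.0179 in knockdown (SD, n = 3) and overlapped. These sums are descriptions of 3 against 3 libraries, without a p-value. Of all regions under 3 CPM, the level of 20 of the 23 beta regions, 11.2% were called lower and the median was -0.05, against -0.39 for those 20. At that level the 7 gamma regions had a median of -0.42 and the 23 alpha regions 0.08. The low median was therefore not particular to beta at that level.

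**Figure D2:**
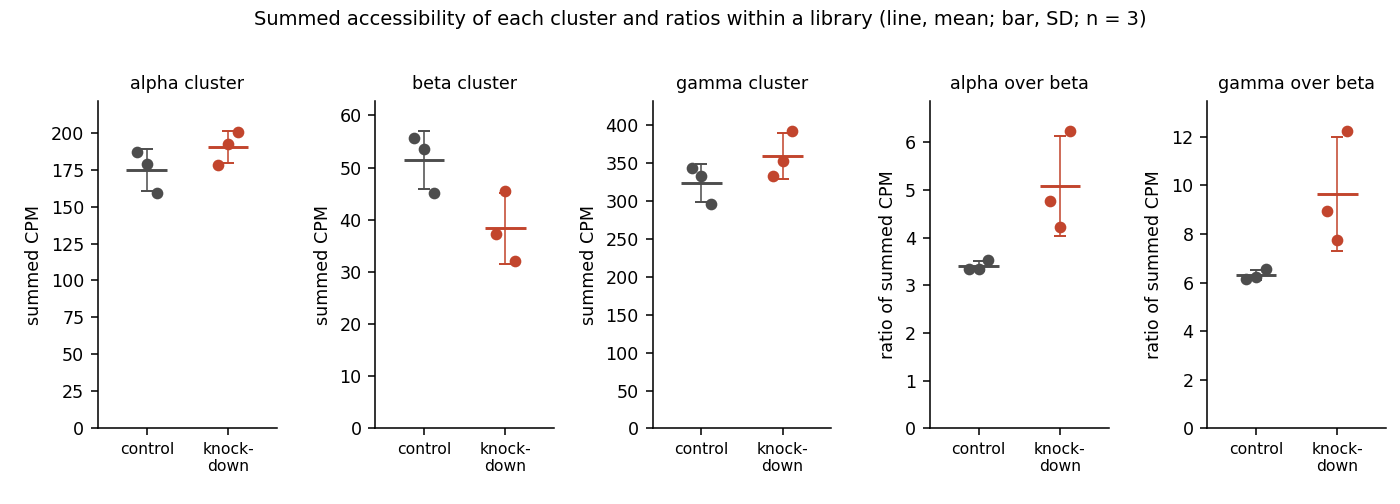
Summed CPM of the regions of each cluster, and the ratios of alpha to beta and of gamma to beta within each library, by group (points, libraries; line, mean; bar, SD; n = 3). Beta sums are 45.0 to 55.7 CPM in control and 32.1 to 45.6 CPM in knockdown, and the alpha to beta ratios of 3.34 to 3.54 in control lie below those of 4.22 to 6.25 in knockdown.

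The 3 beta calls were at starts. Pcdhb11 (region 37421257 to 37421657, centred 39 bp after the start) had 2.66, 2.42 and 2.55 CPM in control and 1.13, 1.42 and 1.33 CPM in knockdown. Every knockdown library was below every control, and the region fell by 0.97 on the log2 scale (SE 0.25, edgeR adjusted p = 0.0092). It was the 1 beta call also made by DESeq2 and with each library left out. Pcdhb14 (37447457 to 37447857) had 3.04, 3.86 and 3.50 CPM in control and 2.26, 2.37 and 1.79 CPM in knockdown, at -0.71 on the log2 scale (SE 0.23, edgeR adjusted p = 0.027). Pcdhb3 (37300600 to 37301000) had 2.43, 2.58 and 2.08 CPM in control and 0.905, 1.58 and 1.59 CPM in knockdown, with -0.79 (SE 0.28, edgeR adjusted p = 0.039). Groups did not overlap at either gene, and both calls were lost in DESeq2 (adjusted p = 0.087 for Pcdhb14 and 0.13 for Pcdhb3). Pcdhb14 was also lost without control replicate 2, control replicate 3 or knockdown replicate 3 (edgeR adjusted p = 0.13, 0.065 and 0.095). Pcdhb3 was lost without any 1 control library (0.083, 0.14 and 0.052 for replicates 1 to 3) and without knockdown replicate 1 (edgeR adjusted p = 0.15).

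Other beta starts with levels above most of the cluster had the same sign without passing. Pcdhb12 had 5.09, 4.29 and 3.83 CPM in control and 2.87, 3.56 and 2.26 CPM in knockdown, which did not overlap (log2 ratio -0.60, edgeR adjusted p = 0.053). Pcdhb19, whose region is 717 bp wide, had 5.09, 5.86 and 4.49 CPM in control against 4.07, 2.85 and 4.05 CPM (-0.49, edgeR adjusted p = 0.084). Pcdhb20 (-0.45, edgeR adjusted p = 0.13) did not overlap between groups either. At Pcdhb17 knockdown replicate 2, at 3.80 CPM, was as high as the controls, at 3.03 to 3.88 CPM. The largest positive value of the cluster was 0.59 at the second start region of Pcdhb4, from under 1 CPM in each control library (edgeR adjusted p = 0.25).

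**Figure D3:**
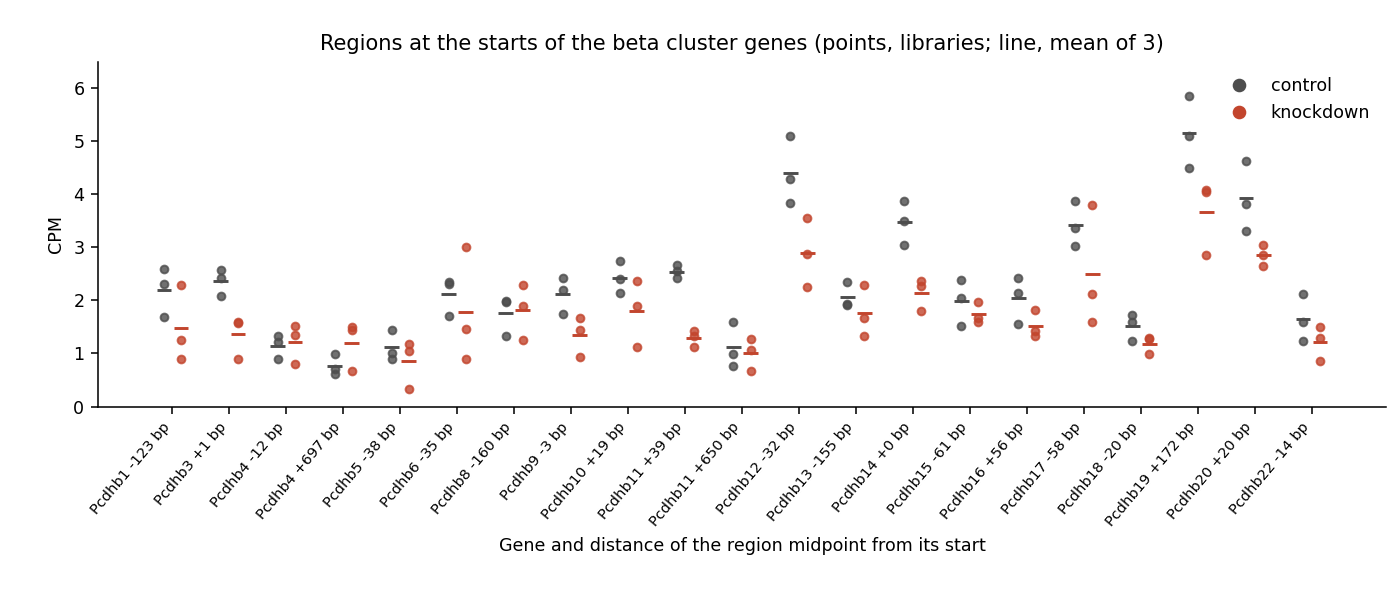
CPM of each of the 21 beta start regions in each library (points) with the mean of 3 (line), labelled by gene and by the distance of the region midpoint from its start in bp. Knockdown means are below control means at 18 of the 21, and no region exceeds 5.86 CPM.

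The C-type starts held all 4 higher start calls. Of their 8 start regions, 4 were higher and none lower by edgeR or DESeq2 (at an unadjusted p under 0.05, 5 and 0). Starts of all coding genes were higher in 43.6% at 10 CPM or more and in 32.7% between 3 and 10 CPM. The second start regions of Pcdhac1 and Pcdhgc3, at 5.77 and 9.53 CPM over all libraries and without a call, lie at the lower of these levels. With so few regions, the count does not set the C-type genes apart. The other 37 alpha and gamma start regions had no higher call by either tool and 1 at an unadjusted p under 0.05, and 1 lower call. Both regions of Pcdhac2, the alpha isoform known for the spacing of serotonergic axons, rose. The one centred 550 bp inside (37144028 to 37144428) had 11.2, 11.6 and 11.2 CPM in control and 16.5, 18 and 18 CPM in knockdown (log2 ratio 0.62, SE 0.12, edgeR adjusted p = 0.0011). The one centred 106 bp inside (37143584 to 37143984) had 14.7, 16.4 and 14.9 CPM in control and 21.3, 20.3 and 20.4 CPM in knockdown (0.43, SE 0.11, edgeR adjusted p = 0.0079). In both, the lowest knockdown library was above the highest control.

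Pcdhac1, its neighbour, did not pass the test: its main start region had 19.7, 15.4 and 14.4 CPM in control and 13.6, 15.3 and 16.3 CPM in knockdown, overlapping (log2 ratio -0.12, edgeR adjusted p = 0.53). In the gamma cluster, Pcdhgc3 (37806135 to 37806535) had 27.0, 23.2 and 23.7 CPM in control and 34.1, 28.7 and 35.1 CPM in knockdown (0.41, SE 0.11, edgeR adjusted p = 0.0084). Its second region, centred 666 bp inside, had a log2 fold change of 0.03 (edgeR adjusted p = 0.90). Pcdhgc4, the isoform known for the survival of neurons, had 34, 34 and 33.2 CPM in control and 39.2, 40.3 and 45.8 CPM in knockdown (37814816 to 37815536, 0.31, SE 0.10, edgeR adjusted p = 0.022). Pcdhgc5 had 13.2, 13.6 and 14.1 CPM in control and 15, 15.4 and 23.5 CPM in knockdown, not overlapping but short of the threshold (0.40, edgeR adjusted p = 0.054).

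All 4 C-type calls were lost with library totals, where the log2 fold changes were 0.36 and 0.17 at the Pcdhac2 regions and 0.15 at Pcdhgc3 (edgeR adjusted p = 0.054, 0.34 and 0.39). With loess curves, which take out the dependence of the fold change on level, Pcdhgc4 was at 0.03 (edgeR adjusted p = 0.84) and of the 4 only the inner Pcdhac2 region kept its call. Pcdhgc4 was also lost without control replicate 2, control replicate 3 or knockdown replicate 3 (edgeR adjusted p = 0.078, 0.080 and 0.14), and Pcdhgc3 without control replicate 2 (edgeR adjusted p = 0.061). Summed over the C-type starts, accessibility was 136, 130 and 126 CPM in control and 153, 152 and 177 CPM in knockdown, without overlap. Over the other alpha and gamma starts it was 204, 191 and 154 CPM in control and 165, 198 and 187 CPM in knockdown. The ratio of the first to the second, 0.667, 0.683 and 0.817 in control and 0.926, 0.769 and 0.948 in knockdown, overlapped.

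**Figure D4:**
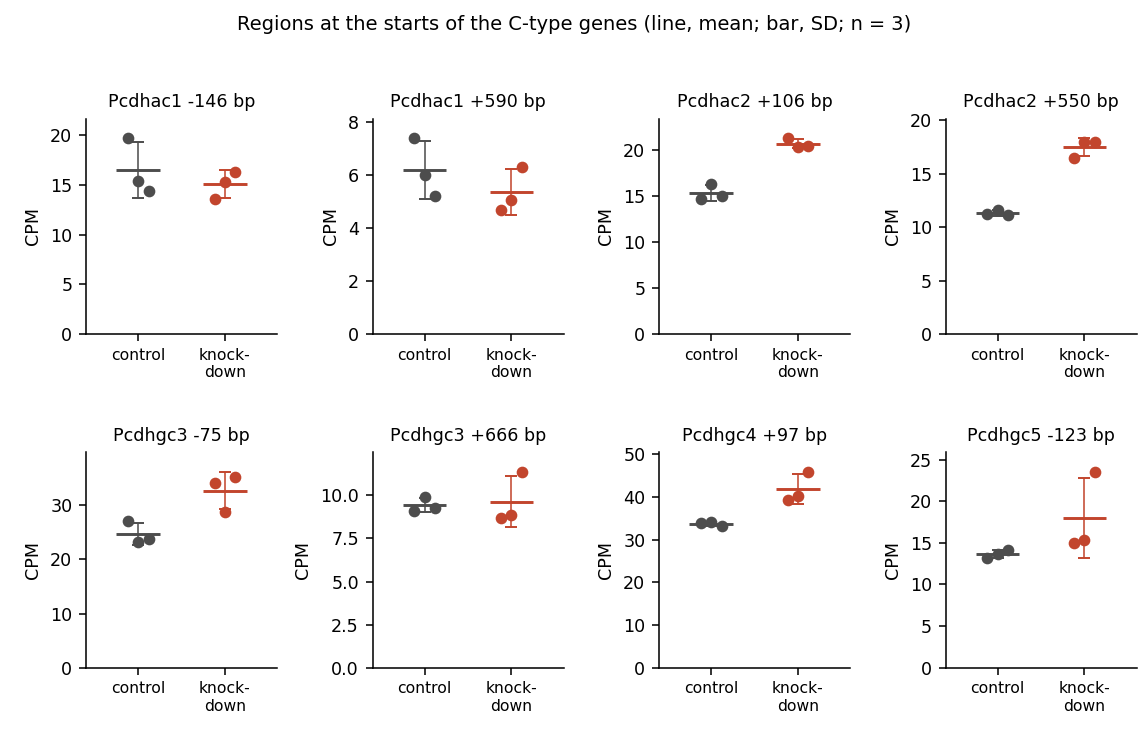
CPM by group at the 8 start regions of the C-type genes, each titled with the gene and the distance of the region midpoint from its start in bp (points, libraries; line, mean; bar, SD; n = 3). Both Pcdhac2 regions rise without overlap, the Pcdhac1 regions overlap, and knockdown replicate 3 at Pcdhgc5, 23.5 CPM, stands above the other two, 15 and 15.4 CPM.

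At the alternate alpha and gamma isoforms, which are chosen at random, few starts were called. At starts of all coding genes, 17.5% were higher and 9.98% lower under 3 CPM, and 32.7% and 6.72% between 3 and 10 CPM. The Pcdha start regions held a median of 43.0 reads per library, which limited what could be called. None of 19 Pcdha start regions was called in either direction by edgeR or DESeq2, nor passed an unadjusted p under 0.05, and 15 were positive, with a range of -0.21 to 0.38. Of 13 Pcdhga start regions, Pcdhga2 fell. Its main region (37668695 to 37669095, centred 32 bp before the start) had 6.31, 6.60 and 5.39 CPM in control and 3.24, 4.43 and 2.46 CPM in knockdown, without overlap (log2 ratio -0.86, SE 0.22, edgeR adjusted p = 0.0072). That call held in DESeq2, under each scaling and with any 1 library left out. Its neighbours Pcdhga1 and Pcdhga3 had 0.27 and 0.08. All 5 Pcdhgb start regions were negative, from -0.40 to -0.10, with no call by either tool and none at an unadjusted p under 0.05. They summed to 36.1, 32.3 and 25.9 CPM in control and 23.7, 26.7 and 27.8 CPM in knockdown, which overlapped.

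After the last start of the gamma cluster, 4 of 6 regions were higher and none lower (1 at an unadjusted p under 0.05, none in DESeq2). Over all regions 15.4% were higher, and 37.3% of those at 10 CPM or more. The largest change of the locus was there, 7093 bp after the start of Pcdhgc5 (37826439 to 37826839) and 272 bp before the bounds of the long noncoding RNA gene Gm29994. It had 2.36, 3.16 and 2.51 CPM in control and 9.88, 8.94 and 14.7 CPM in knockdown. Every knockdown library was well above every control, and the log2 ratio was 2.04 (SE 0.21, edgeR adjusted p = 3.9e-06). Just before it, the region 4905 bp after the start had 6.99, 8 and 7.38 CPM in control and 14.2, 9.58 and 14.9 CPM in knockdown (0.78, SE 0.16, edgeR adjusted p = 0.0021). The next, at 5873 bp, had 8.13, 9.25 and 10.1 CPM in control and 12.7, 13.4 and 16.5 CPM in knockdown (0.62, SE 0.14, edgeR adjusted p = 0.0037). Beyond them, inside the bounds of Gm29994, a region had 4.18, 4.65 and 4.21 CPM in control and 2.72, 1.74 and 4.18 CPM in knockdown (-0.58, edgeR adjusted p = 0.093). The region at the shared 3′ end (37841869 to 37842269) had 10.9, 9.84 and 9.04 CPM in control and 12.4, 15.2 and 15 CPM in knockdown (0.52, SE 0.14, edgeR adjusted p = 0.0085). Summed, the 6 regions had 56.0, 55.6 and 53.7 CPM in control and 73.7, 73.7 and 93.4 CPM in knockdown, without overlap. The calls 4905 and 7093 bp after the start were kept under every setting except grouping by title. Those at 5873 bp and at the 3′ end were lost with library totals (edgeR adjusted p = 0.11 and 0.20).

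After the last alpha start the picture was mixed, with 1 of 12 regions higher and 4 lower, against 15.4% and 12.7% of all regions. The most open, 34886 bp after the start of Pcdhac2 (37178364 to 37178764), had 16.6, 18.6 and 17.1 CPM in control and 23.6, 22.7 and 28.3 CPM in knockdown (log2 ratio 0.51, SE 0.11, edgeR adjusted p = 0.0032, and 0.18 with library totals). Less than 2 kb further, at 36681 bp (37180159 to 37180559), the order was opposite, with 13, 11.3 and 9.46 CPM in control and 8, 5.70 and 7.30 CPM in knockdown (-0.67, SE 0.17, edgeR adjusted p = 0.0064). At 26747 bp, accessibility was 4.41, 4.02 and 3.22 CPM in control and 1.96, 1.74 and 2.39 CPM in knockdown (-0.92, SE 0.23, edgeR adjusted p = 0.0078). Groups did not overlap at any of the 3, and both of these losses were kept under every setting except grouping by title. The losses at 11611 bp (-1.05, edgeR adjusted p = 0.015) and 20559 bp (-0.76, edgeR adjusted p = 0.016) did not pass without control replicate 2 (edgeR adjusted p = 0.057 and 0.055), nor did the first without knockdown replicate 1 (edgeR adjusted p = 0.064). Leaving out control replicate 2 thus reduced the 4 lower alpha calls to 2. Enhancers of the alpha cluster are known to lie downstream of its variable exons, and the regions were not matched to them here.

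**Figure D5:**
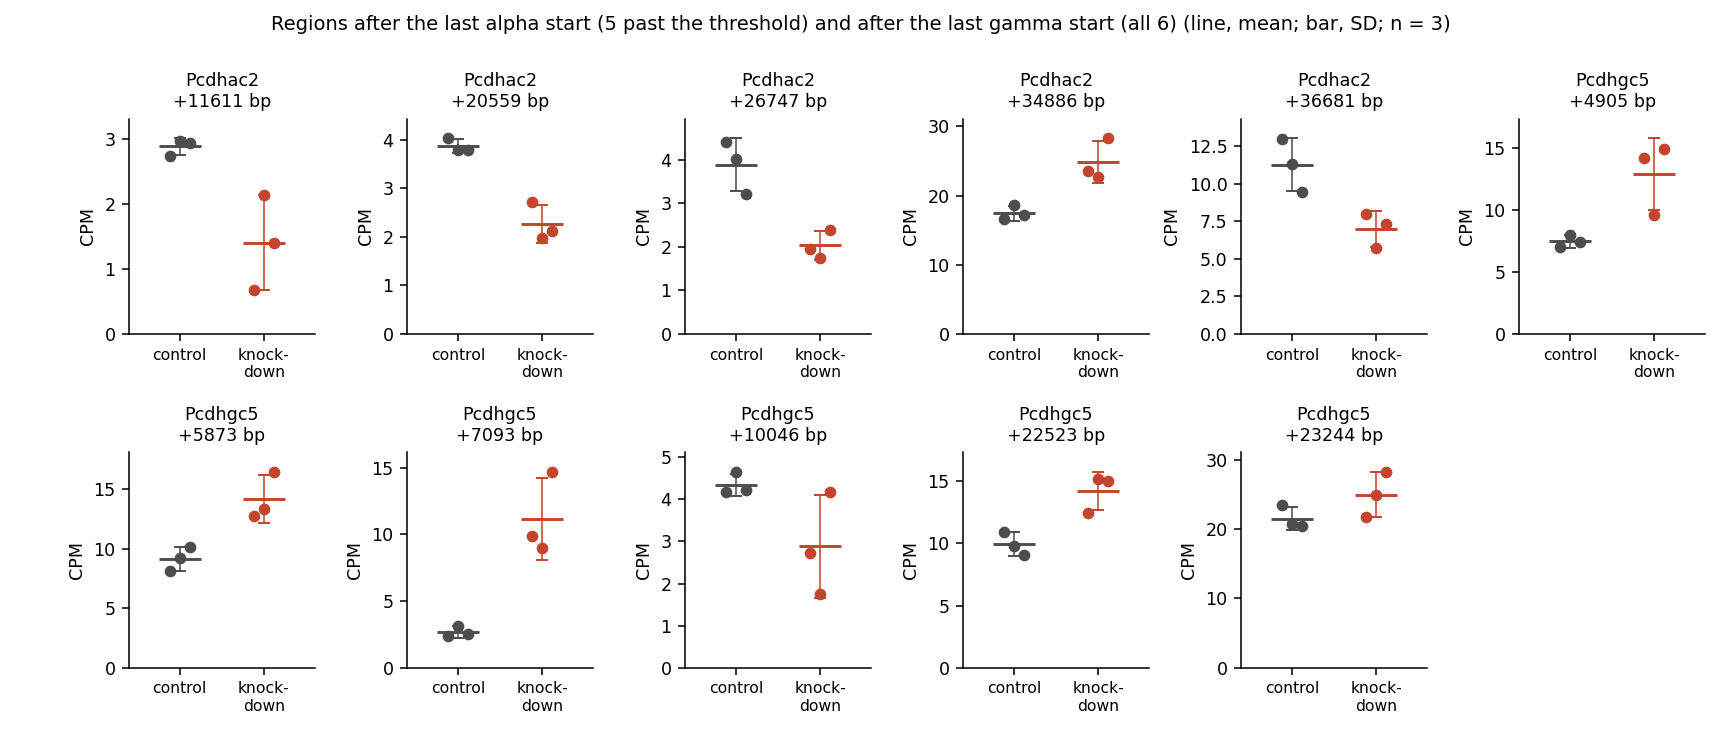
CPM by group at the 5 regions past the threshold after the last alpha start and at all 6 regions after the last gamma start, each titled with the last gene and the distance of the region midpoint from its start in bp (points, libraries; line, mean; bar, SD; n = 3). The region 7093 bp after the start of Pcdhgc5 goes from 2.36 to 3.16 CPM in control to 8.94 to 14.7 CPM in knockdown.

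Between the alpha and beta clusters, 2 of 5 regions were higher, against 15.4% of all regions. The one at 37209773 to 37210173, in the gap of 76100 bp, had 1.22, 3.28 and 2.08 CPM in control and 4.22, 6.17 and 3.98 CPM in knockdown (log2 ratio 1.06, SE 0.28, edgeR adjusted p = 0.0097). Its neighbour, at 37204225 to 37204625, had 0.608, 0.781 and 0.757 CPM in control and 1.28, 1.35 and 1.53 CPM in knockdown (0.92, edgeR adjusted p = 0.039). DESeq2 (adjusted p = 0.16) did not call this second region, nor did edgeR with each library left out. The longest stretch with no region analysed here, 137 kb, ran from the start of Pcdhb22 towards the gamma cluster and holds the genes Slc25a2 and Taf7. Downstream of gamma, within the gene Diaph1, 1 of 10 regions was lower, near the 12.7% of all regions. That region (37883465 to 37883865) went from 19.6, 14.7 and 12 CPM to 9.88, 11.6 and 8.16 CPM (-0.63, SE 0.17, edgeR adjusted p = 0.011). Without control replicate 1 that call was lost (edgeR adjusted p = 0.073).

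Genes that act on or with the clustered protocadherins were taken from 3 lists, each gene with its most open region within 5000 bp. Of 25 chromatin regulators of the clusters, 12 had a higher and 1 a lower main region, with a median log2 fold change of 0.28. At starts of all coding genes 38.2% were higher, and 43.6% of those at 10 CPM or more. Ctcf, the insulator protein that binds these promoters, had 29.6, 27.8 and 26.1 CPM in control and 45.3, 34.1 and 35.6 CPM in knockdown (0.47, SE 0.11, edgeR adjusted p = 0.0054, and 0.23 with library totals). Rest, a repressor of neuronal genes, had 15.1, 19.3 and 15.9 CPM in control and 27.4, 25.9 and 30.1 CPM in knockdown (0.72, SE 0.12, edgeR adjusted p = 0.00029). The cohesin subunit gene Stag2 rose by 0.57 (edgeR adjusted p = 0.0021) while Rad21 (0.14), Smc3 (0.10) and Smc1a (-0.03) did not pass. Lrif1, a partner of the silencing protein Smchd1, had the 1 lower region, with 60.3, 48.9 and 51.2 CPM in control and 39.5, 31.8 and 36.8 CPM in knockdown (-0.56, SE 0.11, edgeR adjusted p = 0.0011). Smchd1 itself, which silences clustered protocadherin genes, had 0.35 (edgeR adjusted p = 0.0088, and 0.58 with library totals).

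Of 20 partners in adhesion signalling, 11 had a higher main region and none a lower one by edgeR or DESeq2 (14 and 0 at an unadjusted p under 0.05), beside 43.6% higher among starts of all coding genes at 10 CPM or more. Marcks, which links the membrane to actin downstream of the gamma proteins, had 27.5, 26.7 and 27.1 CPM in control and 43.8, 44.2 and 41.2 CPM in knockdown (log2 ratio 0.67, SE 0.09, edgeR adjusted p = 8.7e-05). Ptk2, the focal adhesion kinase that these proteins inhibit, had 0.42 (edgeR adjusted p = 0.0058), and the related Ptk2b had -0.36 (edgeR adjusted p = 0.16). Among 12 non-clustered protocadherins, which lie outside the 3 clusters, 9 had a higher main region and 1 a lower one, with a median of 0.38. Pcdh1 and Pcdh12 are on chromosome 18 too, past the end of the locus, with main regions starting at 38212642 and 38286594. At starts of all coding genes 38.2% were higher, with a median of 0.26, and at those of 10 CPM or more 43.6%, also with a median of 0.26. Pcdh12, a vascular protocadherin, fell from 13.3, 13.9 and 13.2 CPM to 7.09, 7.52 and 6.84 CPM (-0.92, SE 0.14, edgeR adjusted p = 0.00016). Pcdh19 rose by 0.50 (edgeR adjusted p = 0.0039). With library totals, 1 regulator, 1 partner and 0 non-clustered protocadherins had a higher main region, and with loess curves 3, 4 and 3 did. Of the called genes named here, Rest, Lrif1, Marcks and Pcdh12 passed under both, and Ctcf, Smchd1 and Ptk2 under neither. Stag2 and Pcdh19 passed with loess curves only. Over all their regions, including those inside the genes, the 3 lists had 55 higher and 16 lower of 242, 86 and 62 of 598, and 47 and 33 of 411, with medians of 0.08, 0.01 and 0.00. Higher shares were 22.7%, 14.4% and 11.4%, against 15.4% of all regions. Lower shares were 6.61%, 10.4% and 8.03%, against 12.7% of all regions.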

How the data were processed

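ATAC-seq regions of 3 control and 3 knockdown libraries were analysed. Per the submitters' processing notes, mm10 was the build and BWA, MACS2, Picard, SAMtools 1.9, Trimmomatic and FastQC were used, without stated roles. The read counter, and whether reads were shifted for transposase binding, is not given in the sources used here. Per the file headers, the deposited values are read counts, RPKM and a score. The deposited counts, unnormalized whole numbers on 193148 regions common to all libraries, were tested. The authors' RPKM was used only to recover library totals, and the deposited score, a scaled coverage signal, was not used. Coordinates are mm10, 1-based.

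Counts were fitted over the whole table with edgeR 4.0.16 (R 4.3.3): low-count filter on raw library sizes, TMM on all regions, quasi-likelihood test, group as the only term, Benjamini-Hochberg adjustment over all regions tested. CPM are TMM-scaled. Calls have an adjusted p under 0.05. The fit was tested on simulated counts. Cluster membership runs from 1000 bp before the lowest start to 1000 bp beyond the highest end of its genes, by region midpoint. The floor of 3 reads covers counting error only. Alternatives were DESeq2 1.42.0 (Wald test), no filter, scaling by library totals, reads in regions or loess curves, grouping by title, assignment to the nearest cluster, and each library left out.

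Genes came from the RefSeq table of GRCm38.p6, the assembly of mm10, without strand or exons. The start of a member means its lower bound. Starts of all coding genes were placed by strand from a separate RefSeq promoter set of 17491 coding genes. All list symbols matched. Named regions were every C-type start region, up to 5 called regions of largest fold change per cluster and direction, the 5 most accessible regions per cluster, and each list gene's most open region; other single regions were named after their values were seen. Members, lists and tests were chosen with earlier results of these data known. Replicate numbers follow accession order and pair no libraries.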

Additional observations from a re-analysis of the deposited data

How the results depend on the processing

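The 20 called locus regions kept their direction under each alternative run. Among the locus regions named by rule and without a call, those at the main Pcdhac1 start, 2707 bp after the start of Pcdhga12, 666 bp after that of Pcdhgc3 and 23244 bp after that of Pcdhgc5 changed sign under at least 1 alternative. Other uncalled regions changed sign too: negative locus regions numbered 60 in the main run and 55 to 87 over the alternatives. Of the 20 called regions, 7 kept their call under all alternatives except grouping by title. The numbers lost were 3 in DESeq2, 0 with no filter, 8 with library totals, 2 with reads in regions, 6 with loess curves and 1 to 7 with a library left out, the 7 without control replicate 2. Grouping by title, which leaves 2 knockdown libraries, gave 0 calls by edgeR in the locus, in each cluster and at member starts, with 9 higher and 2 lower locus regions at an unadjusted p under 0.05; DESeq2 was not run on that grouping.

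With library totals, the locus had 3 higher and 30 lower regions (median -0.31), alpha 0 higher (median -0.11, against 0.15), beta 8 lower (median -0.69), gamma 2 higher and 12 lower (median -0.29) and member starts 0 higher and 15 lower (median -0.37). With reads in regions, lower calls were 18 in the locus, 6 in beta, 5 in gamma and 8 at member starts. With loess curves, the locus had 7 higher, beta 1 lower, and member starts 1 higher and 2 lower. DESeq2 gave 1 lower in beta and 2 lower at member starts. By nearest cluster, alpha had 5 higher and gamma 2 lower. The cause of these shifts was not tested.

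With each library left out, higher calls ranged from 8 to 12 and lower calls from 5 to 14 in the locus, higher 3 to 3 and lower 2 to 4 in alpha, lower 1 to 7 in beta, higher 4 to 8 and lower 1 to 3 in gamma, and higher 2 to 6 and lower 2 to 8 at member starts. Medians ranged from -0.13 to 0.01 in the locus, -0.014 (without control replicate 3) to 0.19 in alpha, -0.61 to -0.25 in beta, -0.15 to 0.018 in gamma and -0.21 to 0.01 at member starts. Few reads limit the beta cluster, where the smallest count in a library was 5. No paired analysis was possible because the groups share no replicate numbers in the titles.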
